A study of Sus scrofa with 16 samples.

Results

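ACSL1 and ACSL3 act in the activation of fatty acids, and ACADM acts in their oxidation. These were the 3 genes described here, of the 638 genes that the array measured by a probe with a single gene symbol. They were found by those symbols in the platform annotation, and each had 1 probe, so 3 of the 1015 probes on the array represent them. Long-chain fatty acids must be joined to coenzyme A before a cell can burn them or build them into lipids, and acyl-CoA synthetases carry out this activation. ACSL1 is a long-chain synthetase of the outer mitochondrial membrane and endoplasmic reticulum, and ACSL3 is a long-chain synthetase of the endoplasmic reticulum and of lipid droplets. ACADM, medium-chain acyl-CoA dehydrogenase, catalyses the first step of mitochondrial beta-oxidation for medium-chain acyl-CoAs. Pig oocytes and early embryos are known for their large stores of lipid droplets.

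Messenger RNA was measured in pig embryos from the days in which the conceptus, the embryo with its membranes, elongates in the uterus. Amplified RNA was labelled with radioactive phosphorus and hybridised to a macroarray, a membrane carrying spots of cDNA products. By shape and length, the 16 samples, for which no treatment is named, were small spherical embryos 1 to 5 mm long, large spherical embryos of 6 to 11 mm, tubular embryos of 13 to 45 mm and filamentous embryos longer than 100 mm, 4 arrays per stage. The labels do not name the animal or litter behind an array, so a p-value here speaks of the spread among these arrays, which may be technical.

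The median intensity per array lay between 62.8 and 71.4, and the number of arrays limits the precision. STAR, a mitochondrial cholesterol carrier and the gene with the largest F over the stages, was higher in the later 3 stages by 1.89 ± 0.19 (SE) on the log2 scale (adjusted p = 4.85e-05, limma). The arrays numbered 1, of which each stage has 1, differed from the rest for many probes. Values without them are given beside the ACSL3 differences from small spherical embryos, and not for ACSL3 among the later stages. None of the 3 probes reached the maximum of an array, and the nearest was ACSL1 at 60% of it.

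ACSL3 was 2.48-fold higher in the 3 later stages than in small spherical embryos, whereas no difference of ACSL1 or ACADM between stages passed the limma test over all probes. ACSL3 had intensities of 20.9, 31.8, 45.1 and 43.2 on the small spherical arrays. On the large spherical arrays it had 76.3, 98, 134 and 114. Tubular arrays gave 77.3, 127, 57.4 and 106, and filamentous arrays gave 33, 92.6, 61.7 and 90.6. Every large spherical and tubular array was above every small spherical array, and 1 filamentous array, replicate 1 at 33, lay within the small spherical range. The stage means were 35.2 ± 11.2, 106 ± 24.4, 91.8 ± 30.6 and 69.5 ± 28.1 (SD, n = 4 each), so the order of levels from the highest was large spherical, tubular, filamentous and small spherical. In whole embryos, fewer cells that express a gene and less of its RNA per cell cannot be told apart.

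**Figure D1:**
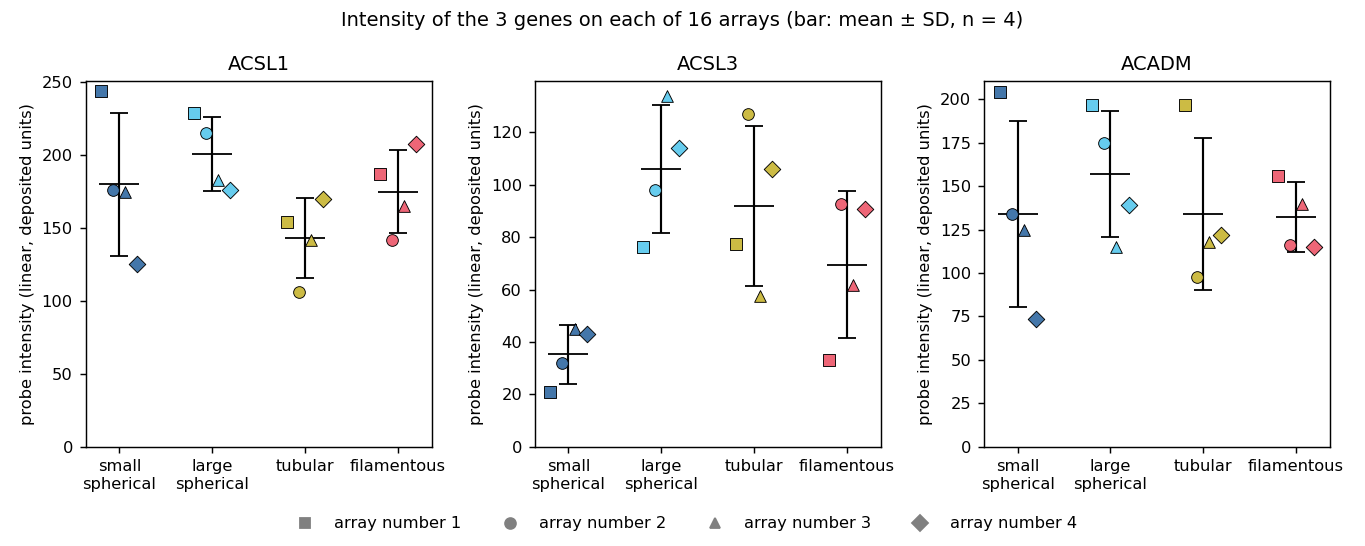
Intensity of ACSL1, ACSL3 and ACADM on each of the 16 arrays, on a linear axis, by stage from small spherical to filamentous; points are arrays and bars are stage means with SD (n = 4). ACSL3 lies at 20.9 to 45.1 in small spherical embryos and at 76.3 to 134 in large spherical embryos, while the ACSL1 and ACADM ranges overlap between small spherical and each later stage.

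ACSL3 rose in the mean of the later 3 stages over small spherical embryos by 1.31 ± 0.29 (SE) on the log2 scale, with a 95% interval of 0.70 to 1.92 (adjusted p = 0.0305, limma over all probes). Of the 12 later arrays, 11 were above the highest small spherical array. In this comparison 4.04% of the 1014 probes tested passed the threshold of an adjusted p under 0.05, 38 higher and 3 lower, and the comparison was planned with earlier results of these data known. The call was lost when any 1 of 3 small spherical arrays was left out: without replicate 1 the difference was 1.08 (adjusted p = 0.1), without replicate 2 it was 1.28 (adjusted p = 0.086) and without replicate 4 it was 1.43 (adjusted p = 0.0545). It was also lost by a narrow margin without large spherical replicate 4 (1.29, adjusted p = 0.0521) or tubular replicate 4 (1.28, adjusted p = 0.0502). On the 12 arrays numbered 2 to 4 alone the difference was 1.26 ± 0.24 (SE, adjusted p = 0.0294). With small spherical replicate 3 and filamentous replicate 1 both left out it was 1.56 ± 0.27 (adjusted p = 0.0048).

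Between single stages ACSL3 did not pass. Large minus small spherical embryos gave 1.62 ± 0.35 (SE) on the log2 scale, a 3.07-fold ratio with an interval of 0.87 to 2.37 on the log2 scale, and an adjusted p of 0.0545. In that step 0.394% of probes passed, 4 higher and 0 lower. Same-numbered arrays of these stages departed from their stage means together in each of 4 pairs, and with the replicate number as a block the difference passed (adjusted p = 0.0138). It also passed without small spherical replicate 3 (1.76, adjusted p = 0.0323), and at 1.62 without tubular replicate 3 (adjusted p = 0.0488) or filamentous replicate 1 (adjusted p = 0.0169). On the arrays numbered 2 to 4 alone it was 1.53 ± 0.30 (adjusted p = 0.049). The exact two-sided permutation test over the 4 and 4 arrays gave p = 0.0286, the smallest it can give and not adjusted over probes. Of 30 alternatives 11 passed, counting this test by its unadjusted p, and 19 did not (adjusted p up to 0.142).

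Tubular minus small spherical embryos gave 1.38 ± 0.35 for ACSL3 on the log2 scale, a 2.6-fold ratio (adjusted p = 0.0863), against a background of 0.394% of probes passing. Without filamentous replicate 1 its adjusted p was 0.0465, and on the arrays numbered 2 to 4 alone the difference was 1.21 ± 0.30 (adjusted p = 0.16). Filamentous minus small spherical embryos gave 0.93 ± 0.35, a 1.91-fold ratio with an interval of 0.18 to 1.68 on the log2 scale (adjusted p = 0.223), where 0.888% of probes passed, and 1.02 ± 0.30 (adjusted p = 0.15) on the arrays numbered 2 to 4 alone. Among the 3 later stages the ACSL3 differences were negative and did not pass (adjusted p of 0.999, 0.994 and 0.722): -0.24 ± 0.35 for tubular minus large spherical, -0.45 ± 0.35 for filamentous minus tubular and -0.69 ± 0.35 for filamentous minus large spherical embryos. The last had an interval of -1.43 to 0.061. In each of these 3 comparisons 0% of probes passed the limma test, while 33, 34 and 61 probes had an unadjusted p under 0.05. The F test over the 4 stages gave ACSL3 F = 8.29 with an adjusted p of 0.142, where 0.394% of probes passed.

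ACSL1 had intensities of 244, 176, 175 and 125 in small spherical embryos and 229, 215, 183 and 176 in large spherical embryos. Tubular arrays gave 154, 106, 142 and 170, and filamentous arrays gave 187, 142, 165 and 208. Small spherical arrays alone spanned most of the range of the other stages, while the 4 tubular arrays all lay below the lowest large spherical array. The means were 180 ± 48.9, 201 ± 25.3, 143 ± 27.3 and 175 ± 28.5 (SD, n = 4 each), highest in large spherical and lowest in tubular embryos. Tubular minus large spherical embryos gave -0.50 ± 0.21 (SE) on the log2 scale with an interval of -0.95 to -0.051, a ratio of 0.706. That difference did not pass over all probes (adjusted p = 0.999). The exact two-sided permutation test on the 8 arrays gave its smallest possible p, 0.0286, which is not adjusted over probes. In this comparison 33 of 1014 probes had an unadjusted limma p under 0.05, against 50.7 by chance. The mean of the later 3 stages minus small spherical embryos was -0.045 ± 0.17 for ACSL1, with an interval of -0.41 to 0.32 (adjusted p = 0.954). Its F test over the stages gave F = 1.92 (adjusted p = 0.729).

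ACADM had intensities of 204, 134, 125 and 73.7 in small spherical embryos and 197, 175, 115 and 139 in large spherical embryos. Tubular arrays gave 197, 97.5, 118 and 122, and filamentous arrays gave 156, 116, 140 and 115. All 4 stages overlapped, and the highest array of each stage was the one numbered 1. The means were 134 ± 53.6, 157 ± 36.4, 134 ± 43.8 and 132 ± 20.1 (SD, n = 4 each). Large minus small spherical embryos gave 0.28 ± 0.29 on the log2 scale (interval -0.33 to 0.90, adjusted p = 0.846), and the later 3 stages minus small spherical gave 0.12 ± 0.24 (interval -0.38 to 0.62, adjusted p = 0.913). The F test gave an adjusted p of 0.987.

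**Figure D2:**
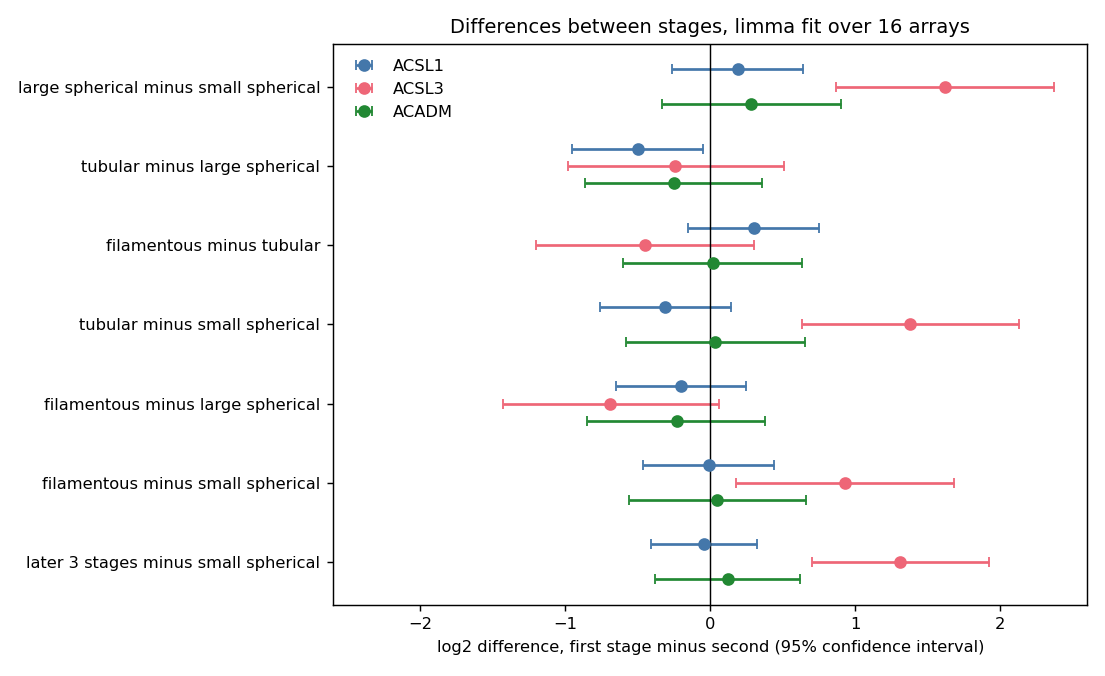
Log2 difference of ACSL1, ACSL3 and ACADM in each comparison between stages, later minus earlier, from the linear model; points are estimates and lines are 95% intervals. The interval of ACSL3 is above 0 in each comparison with small spherical embryos, including 0.70 to 1.92 for the mean of the later 3 stages, and the intervals of ACADM all include 0.

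Whether ACSL3 moved differently from the other genes was tested on the log2 ratio of their intensities within each array, in which a probe's own scale cancels from a change. The ratio of ACSL3 to ACSL1 averaged -1.02 ± 0.69 (SD, n = 12) on later arrays and -2.38 ± 0.87 (SD, n = 4) on small spherical arrays, a change of 1.35. The exact two-sided permutation test gave p = 0.00659, and p = 0.0593 after adjustment over the 9 ratio tests. On 10 of the 12 later arrays this ratio was above its highest small spherical value. Without small spherical replicate 4 the change was 1.64 (exact permutation test, adjusted p = 0.0495), without filamentous replicate 1 it was 1.49 (adjusted p = 0.0132), and without small spherical replicate 1 it was 0.96 (adjusted p = 0.356). For ACSL3 to ACADM the change was 1.19 (exact permutation test, p = 0.0269, adjusted p = 0.121). Of 19 alternatives 2 passed, with 1.57 (adjusted p = 0.0495) without small spherical replicate 4 and 1.33 (adjusted p = 0.0363) without filamentous replicate 1. Without small spherical replicate 1 the change was 0.73 (adjusted p = 0.356). For ACSL1 to ACADM it was -0.17 (exact permutation test, adjusted p = 0.392). On the 12 arrays numbered 2 to 4 alone the ACSL3 to ACSL1 change passed at 1.19 (exact permutation test, adjusted p = 0.0409), and the ACSL3 to ACADM change was 1.04 (adjusted p = 0.102). With all 16 arrays, none of the 9 ratio changes passed after adjustment.

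Between large and small spherical embryos, whose same-numbered arrays departed together, the ACSL3 to ACSL1 ratio was higher in the large spherical array of each of the 4 pairs, by 1.97, 1.34, 1.51 and 0.91 on the log2 scale. The ACSL3 to ACADM ratio was also higher in all 4 pairs, by 1.92, 1.25, 1.69 and 0.49. The exact sign-flip permutation test on 4 pairs cannot go below p = 0.125, so it could not pass at this number of pairs.

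The array number moved with 2 of the 3 genes. ACADM was higher on the arrays numbered 1 than on the others by 0.64 ± 0.17 (SE) on the log2 scale with stage in the model, a 1.56-fold difference (adjusted p = 0.018, limma). ACSL3 was lower there by 0.76 on the log2 scale, a ratio of 0.591 (SE 0.21, adjusted p = 0.0255). ACADM on the array numbered 1 was the highest of its stage in all 4 stages, and ACSL3 was the lowest in small spherical, large spherical and filamentous embryos and the third of 4 in tubular embryos. ACSL1 gave 0.31 ± 0.15 (adjusted p = 0.193). Over all probes 17.0% passed this comparison, 79 higher and 93 lower, and what the number stands for was not tested.

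**Figure D3:**
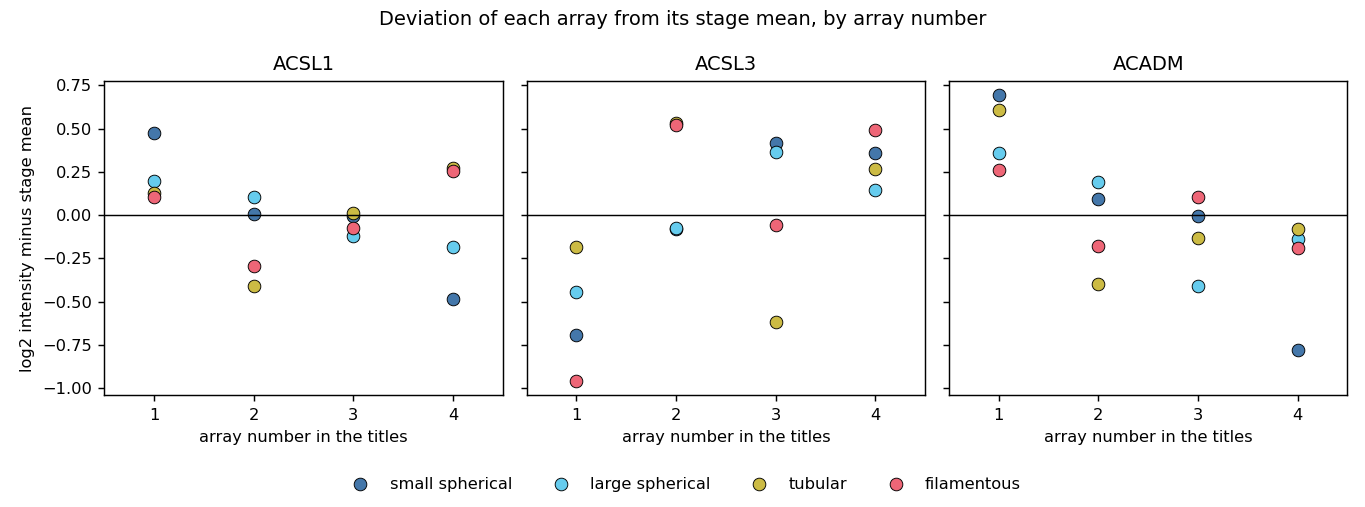
Log2 intensity of each array minus its stage mean, against the array number 1 to 4, in 1 panel each for ACSL1, ACSL3 and ACADM; colours are stages. At number 1 the ACADM points are the highest of their stage in all 4 stages, and the ACSL3 points are the lowest in 3 of 4.

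Across the 16 arrays, log2 intensities of ACSL1 and ACADM had a Pearson correlation of 0.71 and a Spearman correlation of 0.58, and 0.77 for deviations from the stage means. The correlation was 0.71 on the 12 arrays numbered 2 to 4 alone. ACSL3 had Pearson correlations of -0.26 with ACSL1 and -0.22 with ACADM over 16 arrays, against 0.058 and 0.13 over arrays 2 to 4. For deviations from the stage means over 16 arrays these were -0.53 and -0.68, and with a trend along probe number removed -0.45 and -0.38. The points share arrays, array number and stage, and the values are descriptions.

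Of the other 634 genes compared, CTSC, a lysosomal dipeptidyl peptidase, followed ACSL3 most closely, with a Pearson correlation of 0.92 and a Spearman correlation of 0.96 over the 16 arrays. On deviations from the stage means the CTSC value was 0.83, and on arrays 2 to 4 alone it was 0.97. CTSC read 42.3, 31.8, 41.2 and 47.5 in small spherical embryos and 69.9, 84.7, 114 and 89.5 in large spherical embryos. Tubular arrays gave 61.5, 99.6, 55.2 and 80.4, and filamentous arrays gave 34.7, 72.3, 44 and 74.2 for CTSC. As for ACSL3, every large spherical and tubular array was above the small spherical arrays, and filamentous replicate 1 was not; for CTSC filamentous replicate 3 was not either. CTSC in the later 3 stages minus small spherical embryos gave 0.79 ± 0.22 on the log2 scale (adjusted p = 0.0524).

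Next by Pearson correlation with ACSL3 were TGFB3, a secreted growth factor (r = 0.83), PTGES, prostaglandin E synthase (r = 0.82), and PLAC1, a trophoblast membrane protein (r = 0.79). In the same order their Spearman correlations were 0.56, 0.70 and 0.69. For deviations from the stage means the Pearson values were 0.72, 0.65 and 0.78. PLAC1 rose 2.46-fold in the later 3 stages over small spherical embryos (adjusted p = 0.00786, limma). PTGES was 1.84-fold higher in the same comparison (adjusted p = 0.0395), a call lost in 14 of 28 alternatives, each of which left out 1 array. TGFB3 rose by 3.70 ± 0.51 on the log2 scale (adjusted p = 0.000891) and passed in all 27 alternatives. Its spots on the small spherical arrays were dim, at 1.79 to 14.5 with no known floor, and the size of its difference ranged from 1.77 with an offset of 16 to 4.51 with small spherical replicate 3 and filamentous replicate 1 both left out. The least like ACSL3 was HMGN2, a nucleosome-binding protein (r = -0.77). ACADM was most like ATL2, an endoplasmic reticulum shaping protein (r = 0.93), LOC100524598 (r = 0.91), the mitochondrial ribosomal protein gene MRPS11 (r = 0.89) and TRAPPC13 (r = 0.89), and least like ITGB7, an integrin subunit (r = -0.78, and -0.54 with a trend along probe number removed). ACSL1 was most like ATL2 (r = 0.75), SARNP (r = 0.74), the alanyl-tRNA synthetase gene AARS (r = 0.72) and the ATP synthase gene ATP5F1 (r = 0.70), and least like BAD, a regulator of cell death (r = -0.77). The BAD spots were also dim, at 0.514 to 19.2 over all arrays, again with no known floor.

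**Figure D4:**
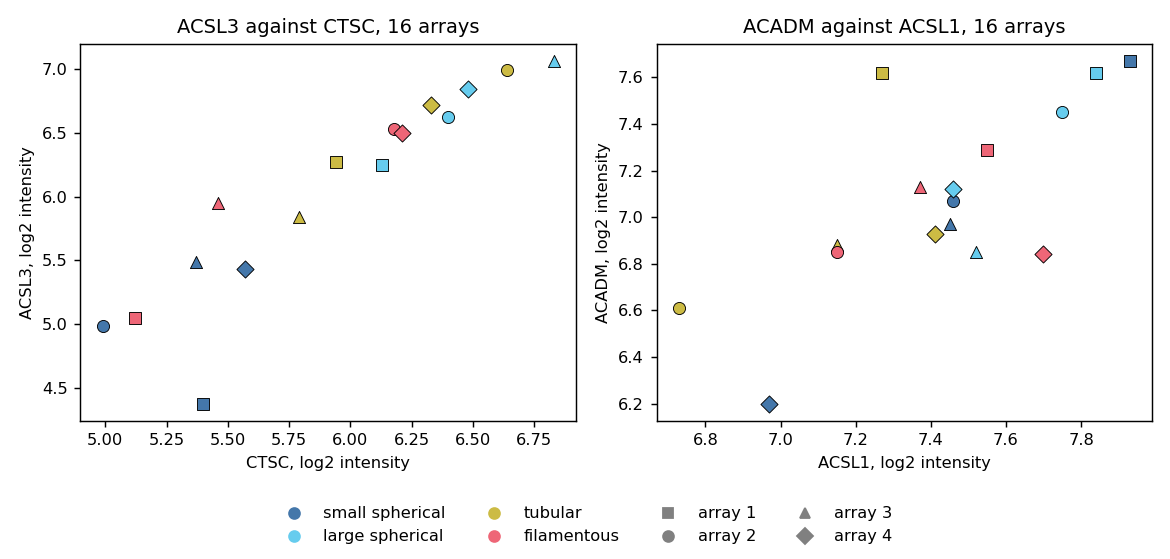
Log2 intensity of ACSL3 against CTSC (left) and of ACADM against ACSL1 (right) on the 16 arrays; colours are stages and marker shapes are array numbers. ACSL3 and CTSC lie along a line (r = 0.92), and ACADM and ACSL1 scatter more widely around theirs (r = 0.71).

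The other genes of lipid use came from lists chosen with earlier results known, and the array held few of them. Of 26 listed genes of acyl-CoA synthesis only ACSL1 and ACSL3 were measured, and of 10 genes of the carnitine shuttle, which carries acyl groups into mitochondria, 0 were. Of 30 genes of mitochondrial beta-oxidation, ACADM and HADHB were measured. HADHB, the thiolase subunit of the trifunctional protein, was dim, with means of 17.1 ± 5.07, 16.6 ± 10.6, 17.2 ± 8.74 and 10.8 ± 7.79 over the stages (SD, n = 4 each), and the later 3 stages minus small spherical gave -0.51 ± 0.59 on the log2 scale (adjusted p = 0.83).

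Peroxisomes also shorten fatty acids, and 3 of 31 such genes were measured, of which 0 passed in the later 3 stages, where 4.04% of all probes did. HSD17B4, the multifunctional enzyme of peroxisomal oxidation, averaged 65.3 ± 23.2, 115 ± 17, 106 ± 12.7 and 92.7 ± 25.6 (SD, n = 4 each). Its later 3 stages minus small spherical difference was 0.74 ± 0.22 on the log2 scale (adjusted p = 0.083), and 10 of 12 later arrays were above the highest small spherical array. It passed without small spherical replicate 3 (0.90, adjusted p = 0.0463), but in only 3 of 28 alternatives. Over these it ranged from 0.44 to 0.95 (adjusted p 0.0311 to 0.313). HSD17B4 read 67.3, 76.5, 85.1 and 32.3 on the small spherical arrays, lowest on replicate 4. SCP2, a sterol carrier and peroxisomal thiolase, gave 0.23 ± 0.27, and ABCD3, a peroxisomal membrane transporter, gave 0.11 ± 0.23 in the same comparison.

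**Figure D5:**
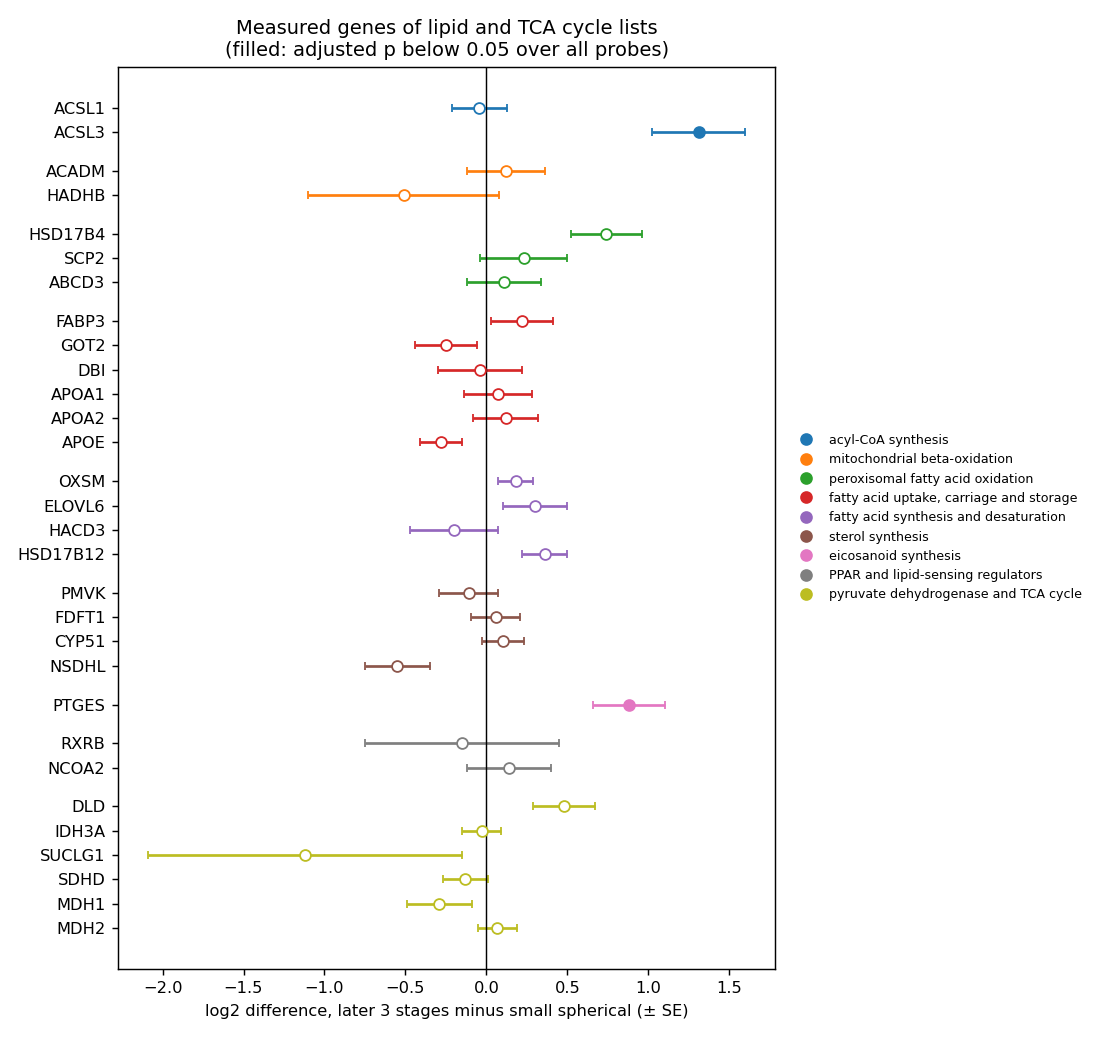
Log2 difference of the mean of the later 3 stages minus small spherical embryos for the 30 measured genes of the lipid and tricarboxylic acid cycle lists; points are estimates, bars are SE, and filled points passed the threshold. ACSL3 at 1.31 and PTGES at 0.88 are filled, and the median of the 30 is 0.07.

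In the remaining lists, 1 of 23 measured genes passed in the later 3 stages, which is near the 4.04% of all probes that did. PTGES was the single measured gene of eicosanoid synthesis, and its stage means were 59.8 ± 14.2, 116 ± 2.95, 105 ± 25.6 and 114 ± 45 (SD, n = 4 each). Its call was lost on leaving out any single array other than small spherical replicate 3 or filamentous replicate 1 (0.78 to 0.91 on the log2 scale, adjusted p up to 0.145). Among the 6 genes of fatty acid uptake and carriage, 3 differences were positive and 3 negative, with APOE, an apolipoprotein, at -0.28 ± 0.13 and GOT2, a mitochondrial aminotransferase, at -0.25 ± 0.19. Of the 4 genes of fatty acid synthesis, 3 differences were positive and 1 negative. HSD17B12, an enzyme of chain elongation, gave 0.36 ± 0.14 (adjusted p = 0.225) and ELOVL6, an elongase, gave 0.30 ± 0.20. OXSM gave 0.18 ± 0.11, and HACD3, also of chain elongation, gave -0.20 ± 0.27. NSDHL, a dehydrogenase of cholesterol synthesis, had the most negative difference of the 4 sterol genes, -0.55 ± 0.20 (adjusted p = 0.173), with 11 of 12 later arrays below the lowest small spherical array. RXRB and NCOA2, a nuclear receptor and a coactivator of the lipid-sensing list, gave -0.15 ± 0.60 and 0.14 ± 0.26. DLD, a shared subunit of pyruvate dehydrogenase and related complexes, gave 0.48 ± 0.19 (adjusted p = 0.215), and of the 6 genes around the tricarboxylic acid cycle 2 differences were positive and 4 negative.

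Together the 27 genes other than ACSL1, ACSL3 and ACADM had 15 positive and 12 negative differences in the later 3 stages, with a median of 0.067, against a median of -0.05 over all 1014 probes. In large minus small spherical embryos 11 were positive and 16 negative with a median of -0.036, against -0.027 over all probes, and 0 passed the limma test, where 0.394% of all probes did. An unadjusted p under 0.05 was found for 3 of the 27, near the 9.37% of all probes.

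Markers of the cell types in the conceptus were compared beside the ACSL3 difference. Of 18 listed trophectoderm markers 7 were measured, and their summed intensity ranged over 648 to 800 on small spherical arrays, 691 to 903 on large spherical arrays, 741 to 908 on tubular arrays and 684 to 883 on filamentous arrays. In the later 3 stages minus small spherical embryos 5 of the 7 differences were positive, and their median was 0.31 in log2 units, against 41.8% positive and a median of -0.05 over all probes. PLAC1 at 1.30 ± 0.23 was the 1 of the 7 that passed, where 4.04% of all probes did. CYP17A1, a steroid hydroxylase, gave 1.61 ± 0.62 (adjusted p = 0.215, limma) and was dim on some arrays, at 1.24 to 36.5 over all. The keratins KRT19 and KRT8 gave 0.38 ± 0.19 and 0.31 ± 0.21, and CYP19A1, aromatase, gave 0.28 ± 0.15. Whether CYP17A1 and CYP19A1 follow the amount of trophectoderm or change within it was not tested. The negative differences were those of the keratin KRT18, -0.036 ± 0.15, and IFNG, interferon gamma, -0.22 ± 0.19. The 7 measured of 16 hypoblast and yolk sac markers summed to 407 to 571, 425 to 590, 471 to 541 and 570 to 714 over the stages. In the later 3 stages minus small spherical 4 of their differences were positive and 3 negative, from -0.58 ± 0.36 for TF to 0.59 ± 0.28 for RBP4. Of these 7, 0 passed, where 4.04% of all probes did. DPPA5, the 1 measured epiblast marker of 8, read 3.1 to 15.5, 7.82 to 15, 3.77 to 18.5 and 11.3 to 26.2 over the stages. The T-cell gene CD3E, the 1 measured of 16 maternal blood markers, read 0.33 to 4.34 over all arrays. The 5 measured of 14 mesoderm markers summed to 176 to 200 on small spherical arrays and 166 to 175 on large spherical arrays. Their sums were 171 to 203 on tubular and 198 to 250 on filamentous arrays. The 3 of 11 uterine epithelium markers summed to 69.9 to 145, 99.4 to 134, 91.2 to 182 and 70 to 145 over the stages. Every deposited intensity was above 0, the lowest being 0.12, so a marker above 0 does not show that its cell type was present. The part of cell composition in the ACSL3 difference was not tested.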

How the data were processed

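The deposited table held 1 linear intensity per probe and array, for 1015 probes and 16 arrays, and 0 sample columns went unused. According to the labels, RNA of each embryo stage was amplified, labelled with phosphorus-32 and hybridised to cDNA membranes. For the authors' scanning, background correction and normalization of these intensities nothing is stated in the labels or headers, and the values have no known floor. Array medians spanned 0.185 on the log2 scale, under a limit of 0.2, so log2 values were used without a pseudocount or any added normalization. Probe 357 was constant and was left out, leaving 1014. In the platform annotation 676 probes had 1 gene symbol, 15 had several and 324 had none. Where several probes shared a gene, the one with the highest mean stood for it. No sequences are shown.

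Stage and array number came from the titles. Stage means were modelled for all probes with limma 3.58.1 (R 4.3.3), followed by eBayes, an F test, 6 contrasts between stages and the mean of the later 3 stages minus small spherical. Tests are two-sided, with Benjamini-Hochberg adjustment over all 1014 probes and a threshold of 0.05. Folds are of geometric means. Changes of within-array log2 ratios were tested by exact permutation over arrays. The fit and the permutation test were tested on simulated data. The members, gene lists and tests were chosen with earlier results of these data known. Named genes were the 3 genes, all measured genes of the acyl-CoA synthesis, carnitine, mitochondrial and peroxisomal lists, up to 4 with the largest F in each other list, STAR, and the 4 most and 1 least correlated genes of each of the 3.

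Alternatives were other normalizations, an offset of 16, exclusion of the dimmest 25% of probes, the array number as a block or as a term for number 1, arrays 2 to 4 alone, a variance trend with a robust prior, array weights, removal of a trend along probe number (loess, span 0.1), the 2 stages compared alone, small spherical replicate 3 and filamentous replicate 1 both left out, and each array left out in turn. Same-numbered arrays deviated together (correlation over 0.1) in all 4 pairs for large minus small spherical, 0.219 to 0.495, and in no other contrast. The coefficient for arrays numbered 1, and the correlations on arrays 2 to 4 or with the trend removed, were added after the data were seen.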

Additional observations from a re-analysis of the deposited data

Results flagged for a closer look

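In 104 groups of 4 arrays, over 26 genes of the lipid lists, 5 groups held an array far from the other 3 by Dixon's test, where chance gives about 1 in 20, or 5.2. None of the 5 was ACSL1, ACSL3 or ACADM. SCP2 read 81.6 in small spherical replicate 1, against 41 to 45.1 on the other 3 arrays. ELOVL6 read 78 in small spherical replicate 1, against 143 to 156. HACD3, an enzyme of fatty acid elongation, read 55.3 in large spherical replicate 1, against 109 to 125, and 54.7 in tubular replicate 1, against 93 to 103. NCOA2, a nuclear receptor coactivator, read 47.5 in tubular replicate 2, against 72.2 to 75.1. Of the 5, 4 were on arrays numbered 1, and the cause was not tested.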

How the results depend on the processing

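ACSL3 in the later 3 stages minus small spherical stayed positive in all 28 alternatives, 1.0 to 1.56 on the log2 scale, and passed in 23 (adjusted p 0.00344 to 0.1). Without 1 array it ranged from 1.08 to 1.45. Large minus small spherical for ACSL3 passed in 11 of 30 alternatives, counting exact permutation by its unadjusted p, and did not in 19 (adjusted p up to 0.142). It passed at 1.62 without the dimmest probes (adjusted p = 0.0339), with the replicate block (0.0138), with a variance trend (0.0238) and with a term for arrays numbered 1 (0.0055). It passed at 1.25 with an offset of 16 (0.0352), 1.53 on arrays 2 to 4 (0.049) and 1.76 with small spherical replicate 3 and filamentous replicate 1 both left out (0.0116), and ranged from 1.39 to 1.76 without 1 array. Exact permutation gave p = 0.0286 each for large minus small spherical (1.62) and tubular minus small spherical (1.38). That p is the smallest the test can give and is not adjusted over probes. Tubular minus small spherical passed in 8 of 30 alternatives, counting exact permutation by its unadjusted p, and did not in 22 (adjusted p up to 0.206). It passed at 1.38 without the dimmest probes (0.0462), with the block (0.0328), with a variance trend (0.048) and with the number 1 term (0.0183). It also passed at 1.33 with array weights (0.0352) and at 1.52 with both arrays left out (0.0215), and ranged from 1.15 to 1.59 without 1 array. Filamentous minus small spherical passed in 1 of 30 alternatives, at 1.39 with both left out (0.043), and had an adjusted p up to 0.47 elsewhere. The ACSL3 F test had an adjusted p of 0.04 with the block, 0.0162 with the number 1 term and 0.0399 with both left out. The block changed no other call of the 3 genes and gave HSD17B4 in the later 3 stages an adjusted p of 0.0376. HSD17B4 passed there in 3 of 28 alternatives (adjusted p up to 0.313).

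ACSL1 and ACADM differences near 0 changed sign in places and never passed over all probes. Counted in the same way as for ACSL3, ACSL1 tubular minus large spherical passed in 1 of 30 alternatives. That was exact permutation at -0.50 (p = 0.0286, not adjusted over probes). ACSL1 filamentous minus small spherical was 0.00026 after cyclic loess and 0.11 on arrays 2 to 4, and -0.17 to 0.15 without 1 array. ACSL1 later 3 minus small spherical was 0.067 on arrays 2 to 4 and -0.21 to 0.12 without 1 array. ACADM filamentous minus tubular was -0.0096 after cyclic loess and -0.07 with both arrays left out, and -0.12 to 0.22 without 1 array. ACADM tubular minus small spherical was -0.051 with array weights and -0.0098 with the probe trend removed, and -0.22 to 0.26 without 1 array. ACADM filamentous minus small spherical was -0.04 with both left out and -0.21 to 0.28 without 1 array, and the later 3 minus small spherical -0.14 to 0.35. The ACSL3 to ACSL1 ratio change was 1.19 on arrays 2 to 4 (adjusted p = 0.0409), and 0.96 to 1.64 without 1 array. Without 1 array, ACSL3 to ACADM was 0.73 to 1.57, and ACSL1 to ACADM -0.19 to 0.0031 in large and -0.21 to 0.036 in filamentous minus small spherical embryos. The causes were not tested.

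Probes past the threshold numbered 41 in the later 3 stages (7 to 63 over the alternatives), 4 in large minus small spherical (1 to 36), 4 in tubular minus small spherical (3 to 29), 9 in filamentous minus small spherical (2 to 31) and 4 in the F test (1 to 17). Scaling moved the median of all probes by at most 0.0551. With 4 arrays a stage and no measured background, small differences of dim probes such as HADHB could not be resolved.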
